A study of Mus musculus with 20 samples.

Results

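The proteins described here are made by the liver and secreted into plasma, where they clot blood, dissolve clots or act as complement. A list of 33 genes for them was used, and probe sets were taken by gene symbol, with the highest mean over all arrays to be used where a gene had several. The probe annotation assigned a probe set to 30 of the 33 genes, 1 each, among 19505 genes on the array; C3, Klkb1 and Cpb2 were not analysed here. Of the 30 members, 18 belong to coagulation and fibrinolysis and 12 to complement. The members and the other gene lists were chosen with earlier results of these data known.

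The livers came from 20 male mice of the obese ob/ob strain, whose leptin gene is not functional, and each was read on its own array. All 4 groups carry this mutation, and no lean mice are among them. The groups of 5 mice were PM2.5 exposure with metformin in the drinking water, called the combined group here, PM2.5 exposure, metformin in the drinking water, and filter air, called filtered air here. PM2.5 is fine airborne particulate matter, breathed in a chamber for 6 hours a day over 2 weeks, and metformin is a glucose-lowering drug whose dose was set by body weight. The labels name no air for the mice with metformin alone, and give chamber hours for exposed mice only, so an effect of the particles and an effect of hours in a chamber cannot be told apart. They give no age, batch or pairing, so mice are numbered within a group in the order of the samples. Nothing in the labels gives a further split of the mice. P-values and intervals rest on the spread between mice within groups, pooled over all 4 groups unless compared groups are fitted alone. This spread is also drawn toward a value shared by all genes. An interval can therefore be wider than the spread of the gene itself would give.

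Hepatocytes make most clotting factors and many complement proteins. Clotting runs as a cascade of serine proteases: a tissue factor branch (F7) and a contact branch (F12, Kng1, F11, F9) meet at F10, which with its cofactor F5 turns prothrombin (F2) into thrombin, and thrombin turns fibrinogen into fibrin. Inhibitors such as antithrombin (Serpinc1) and protein C (Proc) limit the cascade, and plasmin, made from plasminogen (Plg), dissolves fibrin. In complement, lectins with their proteases, or factor B (Cfb), lead to cleavage of C3 and then of C5 (Hc), after which C6, C8 and C9 join the membrane attack complex. Complement and fibrinogen genes are known in the liver for their response to inflammatory cytokines.

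Each value is a log2 signal, so a difference of 1 is a doubling of signal. By mean over all mice, every member was above background. These means lay between 10.42 and 18.23, against a mean 95th percentile of 8.36 for negative-control probe sets. In single mice C8a came close to that level, at 8.69 in PM2.5 mouse 1 and 8.76 in filtered-air mouse 5. All 30 passed the filter on dim genes. Differences were tested with limma over 11844 genes, and the words rose and fell are used of genes whose p, adjusted by Benjamini and Hochberg's method, was under 0.05. There were 6 comparisons, and a value after ± is the standard error of the difference, except where SD is named. In liver pieces, fewer cells of a type and less RNA per cell cannot be told apart.

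Mice 2, 4 and 5 of the combined group stood apart. In mice 2 and 4 this was in the negative controls: their negative-control medians were 4.79 and 4.69, against 4.44 to 4.59 in the other 3 combined mice, 4.34 to 4.52 with PM2.5, 4.45 to 4.54 with metformin and 4.36 to 4.43 in filtered air. Mouse 5 had the lowest mean correlation with its group, 0.981, against 0.983 and 0.985 in mice 2 and 4, and the highest median over tested genes, 8.00, against 7.68 to 7.87 in the other 19 mice. Calls that include the combined group are given also without mice 2 and 4 and with the negative-control median as a covariate, and counts without mouse 5 are given where they differ. Every combined and every metformin mouse had a negative-control median above every filtered-air mouse. The covariate therefore partly follows the groups. For a call lost with it, an array difference and a group difference cannot be told apart. The labelled tissue showed its markers. All 9 hepatocyte markers with a probe set, of 10 listed, were above background, with a mean level per mouse of 17.26 to 17.39 in the combined group, 17.19 to 17.34 with PM2.5, 17.21 to 17.28 with metformin and 17.16 to 17.21 in filtered air. Of these 9, 3 rose in the combined group against filtered air (Ambp, Asgr2 and Cyp2e1) and 0 fell (33.3%, where 34.9% of all genes changed). Without combined mice 2 and 4 only Cyp2e1 passed (11.1%, all genes 21.5%). With the covariate 0 passed in limma (all genes 8.9%), with 1 at an unadjusted p under 0.05. The part of these shifts in the results was not tested.

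The 5 promoters printed here belong to 3 members that rose and 2 that fell in the combined group against filtered air. They are shown because coagulation members moved in both directions, so that the letters before the genes can be read beside the signals. Each is the 250 bases before the annotated start in RefSeq's mouse table (GRCm38.p6), 5′ to 3′ on the gene's strand. F5 lies on the plus strand at chr1:164151585-164151834, F12 on the minus strand at chr13:55426805-55427054, Pros1 on the plus strand at chr16:62854057-62854306, F9 on the plus strand at chrX:59999214-59999463 and F13b on the plus strand at chr1:139501457-139501706. Capitals mark letters that match a searched motif.
F5: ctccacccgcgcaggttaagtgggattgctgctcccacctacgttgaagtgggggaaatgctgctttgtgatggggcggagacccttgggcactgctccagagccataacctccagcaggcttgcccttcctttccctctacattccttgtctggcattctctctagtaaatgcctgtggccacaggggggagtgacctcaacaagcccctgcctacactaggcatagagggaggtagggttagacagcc
F12: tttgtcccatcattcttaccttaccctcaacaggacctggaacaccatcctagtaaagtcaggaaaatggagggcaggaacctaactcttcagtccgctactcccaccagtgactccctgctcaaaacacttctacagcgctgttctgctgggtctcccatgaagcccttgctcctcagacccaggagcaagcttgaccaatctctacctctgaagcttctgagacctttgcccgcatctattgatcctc
Pros1: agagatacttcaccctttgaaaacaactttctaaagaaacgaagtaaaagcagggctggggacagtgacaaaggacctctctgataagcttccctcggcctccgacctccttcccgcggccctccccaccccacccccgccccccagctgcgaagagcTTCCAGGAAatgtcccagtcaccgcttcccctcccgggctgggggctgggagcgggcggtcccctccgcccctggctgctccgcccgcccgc
F9: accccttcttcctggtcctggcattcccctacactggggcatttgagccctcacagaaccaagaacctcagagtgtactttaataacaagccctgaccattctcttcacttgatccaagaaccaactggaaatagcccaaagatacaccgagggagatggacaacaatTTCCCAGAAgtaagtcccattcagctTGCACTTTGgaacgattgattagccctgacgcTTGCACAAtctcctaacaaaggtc
F13b: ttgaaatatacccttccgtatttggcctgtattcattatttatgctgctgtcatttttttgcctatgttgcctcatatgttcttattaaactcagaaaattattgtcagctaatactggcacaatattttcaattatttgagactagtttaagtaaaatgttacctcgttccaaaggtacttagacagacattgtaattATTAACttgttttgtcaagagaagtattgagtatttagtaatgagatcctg

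The motifs were those of HNF1 (GTTAAT), HNF4 (CAAAGNNCA), C/EBP (TTGCNNAA) and STAT (TTCNNNGAA), factors known for liver genes and the acute phase, searched on both strands without a mismatch. The promoter of F9 held 3 matches, to STAT, HNF4 and C/EBP, whose first bases lay 82, 56 and 24 bases before the start. Pros1 held a STAT match beginning 92 bases before its start and F13b an HNF1 match beginning 51 bases before its start. The windows of F5 and F12 held 0 matches to these 4 motifs, which says only that these letters are not in them. The table had a promoter for 24 of the 30 members, and over its 32851 promoters the shares with a match were 6.43% for HNF1, 5.49% for HNF4, 9.56% for C/EBP and 7.02% for STAT. Counted by gene, with a match in any promoter of the gene, 6 of the 24 members held the HNF1 motif, 4 HNF4, 5 C/EBP and 6 STAT. The shares over all promoters are by promoter, which is another unit. Fga, a fibrinogen chain, held all 4. A match is a run of letters and not a shown binding site.

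The combined group against filtered air asks what PM2.5 and metformin together changed. In this comparison, 14 of the 30 members changed (46.7%), where 34.9% of all genes tested did. Of these members, 11 rose and 3 fell, where 18.7% of all genes rose and 16.2% fell. By mean signal every member lay at or above the 84.8th percentile of all genes. With the filter on dim genes raised to the 60th percentile, 14 members passed, and 47.1% of all genes did. The share of members was then close to that of all genes. The members' median log2 difference was 0.17, against 0.01 over all genes tested. The risers were F5, F12, F2, Pros1, Proc, Plg and Serpinf2 among the coagulation members and Hc, Masp1, Cfb and C8b among the complement members, and the fallers were F9, F13b and C8g. Ranges of the combined and the filtered-air mice did not overlap for 15 members, 11 above and 4 below, where 20.8% of all genes did not overlap (11.8% above and 9.03% below). With each array's median made equal, 8 members rose and 4 fell. Of all genes, 1765 rose and 2441 fell in that fit, against 2214 and 1922 in the main fit.

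**Figure D1:**
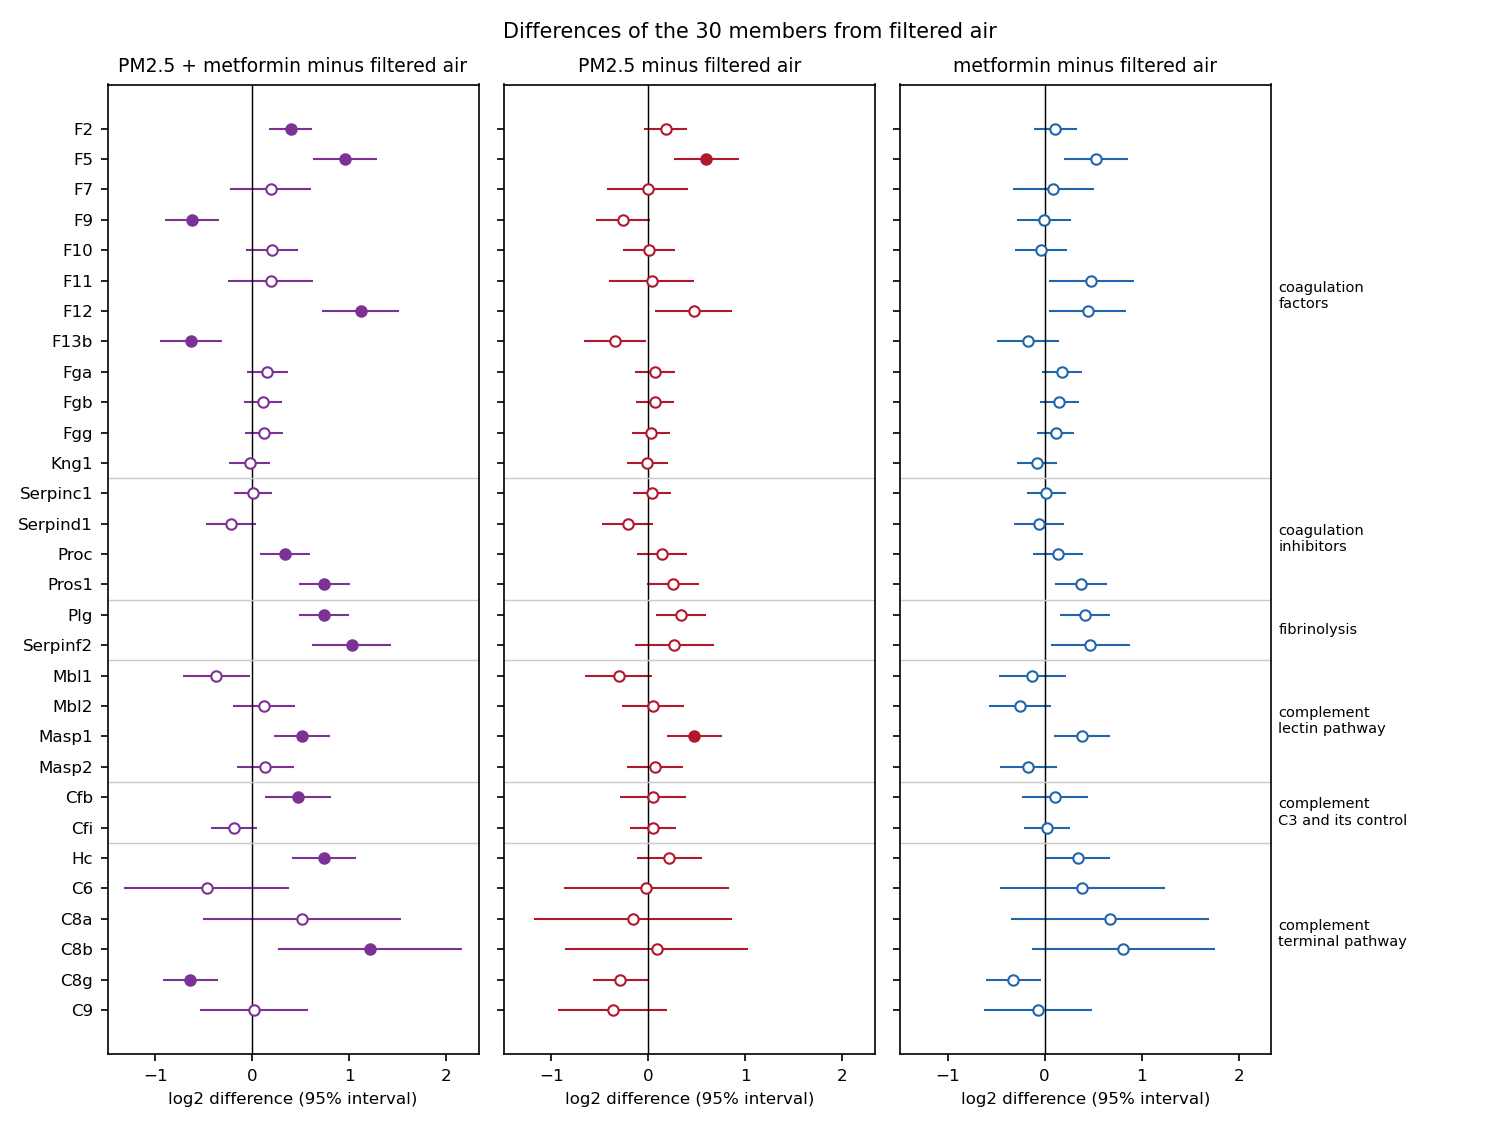
Log2 difference from filtered air of the 30 members, with 95% intervals, for the combined group (left), PM2.5 (middle) and metformin (right); filled points have an adjusted p under 0.05 (limma), and rows are grouped by role. In the left panel 14 points are filled, with F12 at 1.12 and C8g at -0.64, in the middle panel 2 (F5 and Masp1) and in the right panel 0.

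Among the factors that start and carry the cascade, F12, F5 and F2 rose in the combined group. F12, the protease that begins the contact branch, had signals of 12.60, 13.61, 12.92, 13.59 and 12.62 in the combined group, 12.36, 12.58, 12.29, 12.27 and 12.58 with PM2.5, 12.44, 12.21, 12.80, 12.24 and 12.29 with metformin, and 11.55, 11.93, 12.05, 12.14 and 12.07 in filtered air. Every combined mouse lay above every filtered-air mouse, and mice 2 and 4 of the combined group were the highest of all. The difference was 1.12 ± 0.19 (2.17-fold, adjusted p = 0.000201), and it was 0.76 without those mice (adjusted p = 0.0037) and 0.62 with the covariate (adjusted p = 0.0467).

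F5, the cofactor that speeds up thrombin formation, had signals of 15.55, 15.67, 15.67, 15.43 and 15.44 in the combined group, 14.86, 15.59, 14.85, 15.18 and 15.50 with PM2.5, 14.99, 15.10, 15.05, 15.28 and 15.23 with metformin, and 14.34, 14.67, 14.48, 15.09 and 14.40 in filtered air. Again no combined mouse overlapped filtered air, where mouse 4 at 15.09 lay apart from the other 4 mice at 14.34 to 14.67. F5 was 0.95 ± 0.16 higher (1.94-fold, adjusted p = 0.000169), 0.96 higher without combined mice 2 and 4 (adjusted p = 0.00216) and 0.81 higher with the covariate (adjusted p = 0.0205). Prothrombin, F2, had signals of 16.89, 16.98, 16.96, 16.98 and 16.81 in the combined group, 16.50, 16.87, 16.57, 16.83 and 16.76 with PM2.5, 16.57, 16.70, 16.63, 16.56 and 16.73 with metformin, and 16.45, 16.41, 16.49, 16.67 and 16.61 in filtered air. Its combined mice lay above all metformin and all filtered-air mice, within a narrow span. F2 was 0.40 ± 0.11 higher in the combined group than in filtered air (1.32-fold, adjusted p = 0.00656) and 0.36 higher without combined mice 2 and 4 (adjusted p = 0.0437); with the covariate it did not pass (0.36, adjusted p = 0.106).

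F9 and F13b went the other way. F9, the vitamin K-dependent protease that activates F10 and is deficient in hemophilia B, had signals of 15.40, 15.11, 15.75, 15.46 and 15.84 in the combined group, 16.12, 15.96, 15.86, 15.75 and 15.65 with PM2.5, 16.05, 16.13, 16.13, 16.07 and 16.25 with metformin, and 16.28, 16.03, 16.12, 16.10 and 16.12 in filtered air. The combined mice were all below the metformin and the filtered-air mice, with mouse 2 lowest, and the metformin range overlapped that of filtered air. F9 fell by 0.62 on the log2 scale against filtered air (SE 0.13, adjusted p = 0.00131). It fell by 0.46 without combined mice 2 and 4 (adjusted p = 0.0206), and with the covariate it was at -0.33 and did not pass (adjusted p = 0.16). F13b, which carries the fibrin-linking factor XIII in plasma, had signals of 13.32, 13.10, 13.44, 13.18 and 13.36 in the combined group, 13.92, 13.39, 13.88, 13.57 and 13.06 with PM2.5, 13.91, 13.93, 13.51, 13.56 and 13.75 with metformin, and 14.19, 13.79, 13.84, 13.71 and 13.99 in filtered air. Its combined and filtered-air mice did not overlap, and the PM2.5 mice spanned both. F13b fell by 0.63 (SE 0.16, adjusted p = 0.00353) and by 0.54 without combined mice 2 and 4 (adjusted p = 0.0392); with the covariate it was at -0.36 (adjusted p = 0.224).

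The other 7 coagulation factors did not pass in any comparison. They were the fibrinogen chains Fga, Fgb and Fgg, the contact cofactor Kng1, and the proteases F7, F10 and F11. For fibrinogen, the differences between the combined group and filtered air were 0.16 for Fga (95% interval -0.05 to 0.36), 0.11 for Fgb (-0.09 to 0.31) and 0.12 for Fgg (-0.07 to 0.32). Every combined mouse was above every filtered-air mouse in Fga and Fgg, but by small steps. Fgg, for example, averaged 18.29 ± 0.05 in the combined group, 18.20 ± 0.05 with PM2.5, 18.28 ± 0.06 with metformin and 18.17 ± 0.03 in filtered air (SD, n = 5). These levels are close to the highest signal of each array, 18.69 to 19.03, where a difference can be compressed; this was not tested. Kng1 was at -0.03 (interval -0.24 to 0.18). F7, F10 and F11 had wider intervals, -0.23 to 0.61, -0.06 to 0.48 and -0.25 to 0.63. F11 was at 0.48 ± 0.21 with metformin against filtered air, where it did not pass (adjusted p = 0.216).

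Among the inhibitors of clotting, the protein C pair rose and the serpins did not pass. Pros1, protein S, which helps activated protein C to inactivate F5, had signals of 11.89, 12.10, 11.82, 12.26 and 11.66 in the combined group, 11.54, 11.63, 11.51, 11.41 and 11.19 with PM2.5, 11.68, 11.38, 11.63, 11.63 and 11.57 with metformin, and 11.33, 11.15, 11.17, 11.31 and 11.06 in filtered air. All combined mice lay above all mice of the PM2.5 and the filtered-air groups, and metformin mice lay above the filtered-air mice too. Pros1 was 0.74 ± 0.13 higher in the combined group than in filtered air (1.67-fold, adjusted p = 0.000207), 0.58 higher without mice 2 and 4 (adjusted p = 0.00471) and 0.55 with the covariate (adjusted p = 0.0334). Proc, protein C itself, had signals of 15.77, 15.98, 16.03, 15.91 and 15.74 in the combined group, 15.40, 15.86, 15.63, 15.86 and 15.69 with PM2.5, 15.80, 15.96, 15.49, 15.57 and 15.60 with metformin, and 15.60, 15.46, 15.42, 15.68 and 15.61 in filtered air. The combined and the filtered-air mice were separate by a small step. Proc was 0.33 ± 0.12 higher (adjusted p = 0.0405), but not past the threshold without combined mice 2 and 4 (0.30, adjusted p = 0.152) or with the covariate (0.31, adjusted p = 0.227). It was also lost when filtered-air mouse 1, 2, 3 or 5 or combined mouse 2, 3 or 4 was left out alone (adjusted p = 0.0519 to 0.0937).

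Antithrombin, Serpinc1, which blocks thrombin and F10, averaged 17.25 ± 0.08 in the combined group, 17.28 ± 0.06 with PM2.5, 17.26 ± 0.07 with metformin and 17.24 ± 0.03 in filtered air (SD, n = 5). Its difference between the combined group and filtered air was 0.01, with an interval of -0.19 to 0.21. Heparin cofactor II, Serpind1, was at -0.22 in the combined group (interval -0.48 to 0.04) and at -0.22 with PM2.5 (interval -0.47 to 0.04), each against filtered air. All mice of both exposed groups lay below all filtered-air mice for Serpind1, yet it did not pass (adjusted p = 0.188 and 0.316).

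Both measured fibrinolysis members rose. Plg, plasminogen, had signals of 16.89, 17.35, 17.02, 17.38 and 16.88 in the combined group, 16.64, 16.77, 16.63, 16.66 and 16.83 with PM2.5, 16.70, 16.75, 16.71, 16.83 and 16.89 with metformin, and 16.37, 16.28, 16.36, 16.63 and 16.17 in filtered air. Filtered air was lowest and combined mice 2 and 4 were highest; the highest filtered-air mouse and the lowest PM2.5 mouse round to the same value. Plg was 0.74 ± 0.12 higher in the combined group than in filtered air (1.67-fold, adjusted p = 0.000172), 0.57 without those mice (adjusted p = 0.00402) and 0.51 with the covariate (adjusted p = 0.0326). Serpinf2, antiplasmin, which blocks plasmin, had signals of 15.40, 16.06, 15.73, 15.85 and 15.33 in the combined group, 14.18, 14.86, 14.86, 15.41 and 15.25 with PM2.5, 15.13, 15.13, 14.75, 15.20 and 15.37 with metformin, and 14.60, 14.68, 14.44, 14.95 and 14.56 in filtered air. The gene for the enzyme and the gene for its inhibitor thus rose in the same livers. Serpinf2 was 1.03 ± 0.20 higher (2.04-fold, adjusted p = 0.000466), 0.84 without combined mice 2 and 4 (adjusted p = 0.0104) and 0.84 with the covariate (adjusted p = 0.0424).

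**Figure D2:**
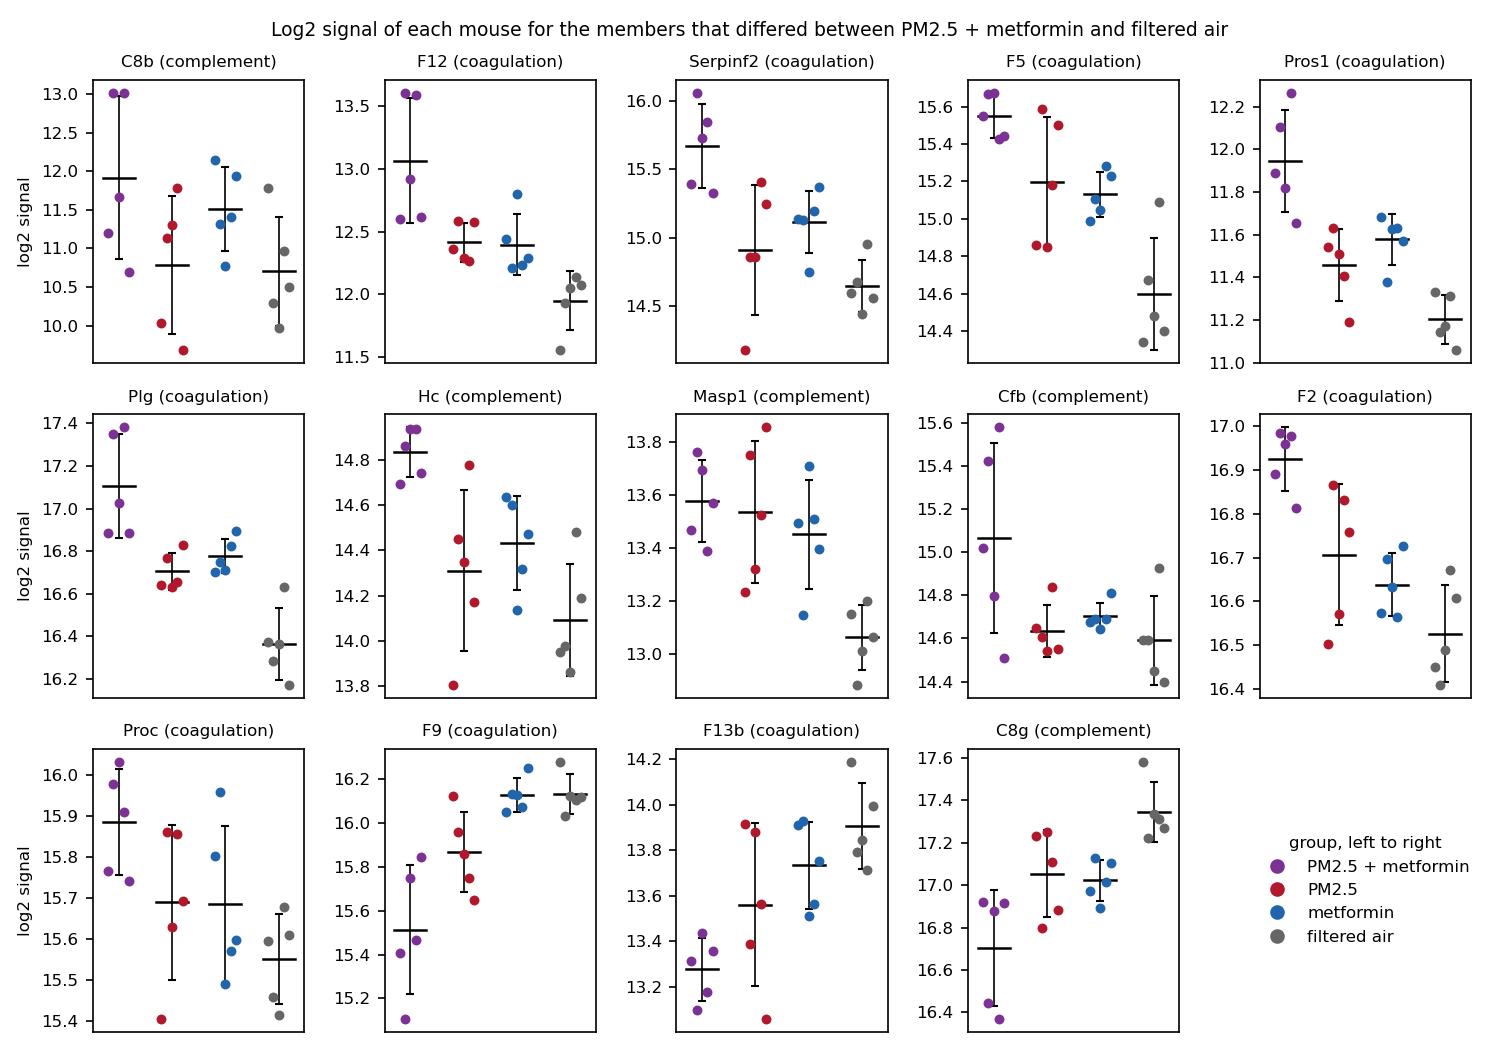
Log2 signal of each mouse (points) with group mean and SD (bar and whiskers, n = 5) for the 14 members that changed in the combined group against filtered air, each panel on its own scale. Groups run PM2.5 with metformin, PM2.5, metformin, filtered air from left to right. Combined mice 2 and 4 form the upper pair of their group in F12, Plg, C8b, Pros1, Serpinf2 and Cfb, at 13.61 and 13.59 in F12. They do so in F2 too, by a small step.

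In complement, the lectin pathway held 1 riser. Masp1, a protease that starts this pathway by activating Masp2, had signals of 13.46, 13.76, 13.69, 13.39 and 13.57 in the combined group, 13.23, 13.75, 13.32, 13.52 and 13.85 with PM2.5, 13.49, 13.14, 13.71, 13.51 and 13.39 with metformin, and 13.15, 12.88, 13.01, 13.20 and 13.06 in filtered air. All PM2.5 and all combined mice lay above all filtered-air mice. Masp1 was 0.51 ± 0.14 higher in the combined group (1.43-fold, adjusted p = 0.00661) and 0.51 higher without mice 2 and 4 (adjusted p = 0.0265); with the covariate it did not pass (0.40, adjusted p = 0.159). Masp2, the protease that cleaves C4 and C2, was at 0.13 (interval -0.16 to 0.43). The mannose-binding lectins were at -0.37 for Mbl1 (interval -0.71 to -0.02, adjusted p = 0.0904) and 0.13 for Mbl2 (interval -0.19 to 0.44).

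Cfb, the protease of the alternative pathway, had signals of 15.02, 15.42, 14.80, 15.58 and 14.51 in the combined group, 14.65, 14.61, 14.54, 14.84 and 14.55 with PM2.5, 14.68, 14.69, 14.64, 14.69 and 14.81 with metformin, and 14.59, 14.59, 14.45, 14.92 and 14.40 in filtered air. Mice 2 and 4 of the combined group were the highest, and mice 3 and 5 of that group lay within the filtered-air range. Cfb was 0.47 ± 0.16 higher (1.39-fold, adjusted p = 0.0283), but 0.18 without combined mice 2 and 4 (adjusted p = 0.387) and 0.14 with the covariate (adjusted p = 0.678). Leaving out filtered-air mouse 3 or 5 alone, or combined mouse 2 or 4 alone, also ended the call (adjusted p = 0.0642 to 0.0999). Cfi, which inactivates C3b and C4b, was at -0.19 (interval -0.43 to 0.05).

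In the terminal pathway Hc and C8b rose and C8g fell. Hc, which encodes C5, had signals of 14.69, 14.86, 14.93, 14.93 and 14.74 in the combined group, 13.81, 14.45, 14.35, 14.78 and 14.17 with PM2.5, 14.63, 14.60, 14.14, 14.32 and 14.47 with metformin, and 13.95, 13.98, 13.86, 14.48 and 14.19 in filtered air. The combined mice lay close together and above every filtered-air and metformin mouse. Hc was 0.74 ± 0.16 higher in the combined group than in filtered air (1.67-fold, adjusted p = 0.00136), 0.70 without mice 2 and 4 (adjusted p = 0.0141) and 0.80 with the covariate (adjusted p = 0.0249).

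C8 is built from 3 chains encoded by C8a, C8b and C8g, and the chains did not move alike. C8g had signals of 16.92, 16.45, 16.88, 16.37 and 16.91 in the combined group, 17.23, 16.80, 17.25, 17.11 and 16.88 with PM2.5, 16.97, 17.13, 16.89, 17.02 and 17.10 with metformin, and 17.58, 17.22, 17.34, 17.31 and 17.27 in filtered air. Its combined mice lay below all filtered-air mice, with mice 4 and 2 lowest. C8g fell by 0.64 (SE 0.14, 1.56-fold, adjusted p = 0.00119) and by 0.44 without those mice (adjusted p = 0.0251), and with the covariate it was at -0.33 (adjusted p = 0.157). C8b had signals of 11.20, 13.02, 11.67, 13.01 and 10.69 in the combined group, 10.03, 11.14, 11.30, 11.78 and 9.68 with PM2.5, 12.14, 11.31, 10.77, 11.41 and 11.94 with metformin, and 11.78, 10.29, 9.97, 10.96 and 10.51 in filtered air. Mice 2 and 4 of the combined group, at 13.02 and 13.01, lay above all other mice, and the rest of the groups overlapped. The C8b difference was 1.21 ± 0.46 (2.32-fold, adjusted p = 0.0427), and 0.48 without those mice (adjusted p = 0.466). It was lost too when filtered-air mouse 2, 3, 4 or 5 or combined mouse 2, 3 or 4 was left out alone (adjusted p = 0.0509 to 0.134). C8a was at 0.52 (interval -0.51 to 1.54).

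C6, C8a, C8b and C9 varied most from mouse to mouse within groups, with SDs within groups of 0.73, 0.89, 0.82 and 0.47, while those of the 18 coagulation members lay between 0.05 and 0.35. Their intervals are accordingly wide: in the combined group against filtered air, C6 was at -0.47 (-1.32 to 0.38) and C9 at 0.02 (-0.54 to 0.58).

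PM2.5 against filtered air asks what the particles changed without the drug. Of the 30 members 2 rose (6.67%) and 0 fell, where 5.17% of all genes changed (2.67% higher, 2.5% lower). Ranges did not overlap for 3 members above (F12, Masp1 and Plg) and 1 below (Serpind1), where 6.94% of all genes did not overlap (3.55% above, 3.39% below). F5 was 0.60 ± 0.16 higher (1.51-fold, adjusted p = 0.0332), with PM2.5 mice 1 and 3 within the filtered-air range. Masp1 was 0.48 ± 0.14 higher (1.39-fold, adjusted p = 0.0486), with no overlap. Both calls depended on single mice. F5 did not pass without filtered-air mouse 1, 2, 3 or 5 or PM2.5 mouse 2 or 5 (adjusted p = 0.0558 to 0.119), and Masp1 did not pass when any of 12 single mice was left out (adjusted p = 0.0535 to 0.149). With each array's median made equal, 0 of the 30 passed in limma, and 6 had an unadjusted p under 0.05. The next members by p were Plg at 0.34 ± 0.12 (adjusted p = 0.107) and F12 at 0.47 ± 0.19 (adjusted p = 0.15), each with every PM2.5 mouse above every filtered-air mouse. The fibrinogen chains were at 0.07, 0.07 and 0.03.

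Metformin against filtered air had 0 of 30 members past the threshold in limma, where 3.15% of all genes changed (1.26% higher, 1.89% lower). Plg, Pros1 and F12 lay above filtered air and C8g below it without overlap, where 6.75% of all genes did not overlap (3.18% above, 3.57% below). At an unadjusted p under 0.05 there were 9 members, 8 higher and 1 lower, which is 30% of members against 18.6% of all genes. The lowest adjusted p were 0.0708 for F5 (0.53 ± 0.16) and 0.072 for Plg (0.41 ± 0.12). With array weights F5, Plg and Pros1 passed (all genes 7.21%), and with a trended, robust prior F5 and Plg passed (all genes 3.26%). Without filtered-air mouse 4, which had the highest F5 and Plg of its group, 2 members passed (all genes 3.65%). F9 was at -0.01 (interval -0.28 to 0.27).

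The combined group against PM2.5 asks what metformin changed in exposed mice. Of the 30 members 5 rose (16.7%) and 0 fell, where 11.7% of all genes changed (6.95% higher, 4.73% lower). With the filter at the 60th percentile the count was also 5, where 18.6% of all genes changed. The 5 in the main fit are named next. They were Serpinf2 (0.76 ± 0.20, adjusted p = 0.0157), Pros1 (0.49 ± 0.13, adjusted p = 0.0169), F12 (0.65 ± 0.19, adjusted p = 0.0315), Hc (0.52 ± 0.16, adjusted p = 0.039) and Plg (0.40 ± 0.12, adjusted p = 0.0406). For Pros1, F12 and Plg every combined mouse lay above every PM2.5 mouse, and 0 members lay below, where 6.34% of all genes did not overlap (4.44% above, 1.9% below). None of the 5 calls held without both combined mice 2 and 4, a fit with fewer arrays in which 1.74% of all genes passed. There Hc was at 0.48 and Serpinf2 at 0.57, while Pros1 was at 0.33, F12 at 0.30 and Plg at 0.23, and 3 members had an unadjusted p under 0.05 (10%, all genes 15.5%). With the covariate 0 members passed in limma, where 0.667% of all genes did, and 4 had an unadjusted p under 0.05 (13.3%, all genes 13.5%); Hc was at 0.57, Serpinf2 at 0.61, Pros1 at 0.33, F12 at 0.24 and Plg at 0.21. With these groups fitted alone 0 passed, where 4.3% of all genes did, and 7 had an unadjusted p under 0.05. Hc, F12 and Plg were also lost without single PM2.5 mice. Single mice moved the count: it was 0 without combined mouse 2, 1 without combined mouse 4, 2 without PM2.5 mouse 1 or 3, 3 without PM2.5 mouse 4 or combined mouse 3, and 8 without combined mouse 5. Over all genes 6.36% passed without combined mouse 2, 9.74% without combined mouse 3, 5.37% without combined mouse 4 and 18.1% without combined mouse 5. The shares without PM2.5 mouse 1, 3 or 4 were 8.01%, 7.14% and 6.53%.

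The combined group against metformin asks what the particles changed in mice on the drug. F12 rose, and F9 and F13b fell, 3 of 30 members (10%), where 16.3% of all genes changed (9.69% higher, 6.63% lower), so the share of members was below that of all genes. Ranges did not overlap for 4 members above (F2, F5, Hc and Masp2) and 2 below (F9 and F13b), where 9.31% of all genes did not overlap (5.54% above, 3.77% below). F9 fell by 0.61 (SE 0.13, adjusted p = 0.00474), with all combined mice below all metformin mice. F13b fell by 0.46 (SE 0.16, adjusted p = 0.0472), also with no overlap, and F12 was 0.67 ± 0.19 higher (adjusted p = 0.0206), with overlap. F13b was lost when any of 13 single mice was left out, and F12 without combined mouse 2 or 4 (adjusted p = 0.067 to 0.0736). F9 stayed past the threshold without any single mouse and with the covariate (-0.47, adjusted p = 0.0205), but not without both combined mice 2 and 4 (-0.46, adjusted p = 0.0602). Without both mice 0 of 30 passed in limma, where 4.21% of all genes did, and 2 had an unadjusted p under 0.05 (6.67%, all genes 21.5%). With the covariate 1 passed, where 8.52% of all genes did. The count was 1 without combined mouse 2 or 4 (all genes 11.2% and 9.56%) and 8 without combined mouse 5 (all genes 20.3%). Scaling mattered for the split: quantile normalization gave 4 risers and 1 faller, and equal medians gave 0 and 3. The split of all genes moved too. It was 1148 higher and 785 lower in the main fit, 975 and 959 with quantile normalization, and 745 and 1312 with equal medians.

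**Figure D3:**
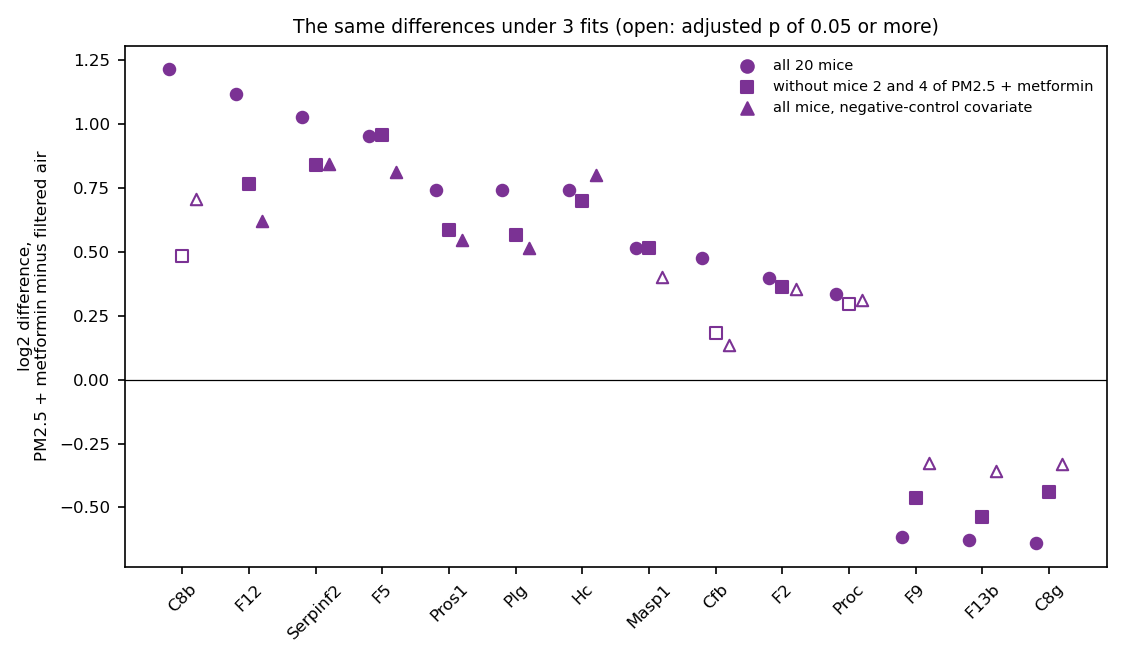
Log2 difference between the combined group and filtered air for the 14 members that changed, from all 20 mice (circles), without combined mice 2 and 4 (squares) and with the negative-control median as a covariate (triangles). Open symbols have an adjusted p of 0.05 or more; F12, Serpinf2, F5, Pros1, Plg and Hc are filled in all 3 fits, and C8b lies at 1.21, 0.48 and 0.71.

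Across these checks the combined difference from filtered air split into layers. F5, F12, Plg, Pros1, Serpinf2 and Hc passed in all 30 alternatives that were run. F2, Masp1, F9, F13b and C8g were lost only with the covariate, which was higher in every combined mouse than in every filtered-air mouse. Array and group differences cannot be told apart there. C8b, Cfb and Proc were lost in 13, 8 and 12 of the alternatives. Of the 30 members, 11 passed without combined mice 2 and 4 (8 higher and 3 lower), where 21.5% of all genes did, and 6 with the covariate, where 8.9% of all genes did. No called difference changed sign.

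The interaction asks whether the metformin difference under PM2.5 was unlike that without PM2.5. For the members 0 passed in limma, and 0 had an unadjusted p under 0.05, where 0.186% of all genes passed (0.16% higher, 0.0253% lower) and 13% had an unadjusted p under 0.05. Without combined mice 2 and 4, and with the covariate, 0 members passed and 0 had an unadjusted p under 0.05, where 0.0844% and 0.371% of all genes passed. The share over all genes depended on combined mouse 5: without it 289 genes passed in place of 22 (2.44%), and 0 members. The lowest p among members were those of F9 (-0.35 ± 0.19, interval -0.74 to 0.04, adjusted p = 0.453) and Masp1 (-0.35 ± 0.20, interval -0.76 to 0.06, adjusted p = 0.472). For F5 the interval was -0.65 to 0.29 and for Plg -0.38 to 0.35, so larger departures from a sum of both single differences lie outside them. Over all 4 groups at once, the F test of limma called 11 of 30 members, where 32.1% of all genes were called: F5, Plg, Pros1, F12, Serpinf2, F9, Hc, C8g, F13b, Masp1 and F2. It called 7 without combined mice 2 and 4 (all genes 20.1%) and 2 with the covariate (all genes 13.5%).

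By group mean, the combined group was the highest of the 4 for 17 of 30 members (56.7%) and filtered air the lowest for 16 (53.3%). Over all genes tested these shares were 33.5% and 31.6%. For F5 the 4 means were 15.55 ± 0.12 in the combined group, 15.20 ± 0.35 with PM2.5, 15.13 ± 0.12 with metformin and 14.60 ± 0.30 in filtered air (SD, n = 5). PM2.5 and metformin, neighbours in this order, differed by less than their SDs. Plg showed the same order of outer groups, 17.11 ± 0.24, 16.70 ± 0.09, 16.78 ± 0.08 and 16.36 ± 0.17 in the same sequence of groups. F9 had the opposite order, 15.51 ± 0.29 in the combined group, 15.87 ± 0.18 with PM2.5, 16.13 ± 0.08 with metformin and 16.13 ± 0.09 in filtered air (SD, n = 5), and metformin and filtered air did not differ beyond their spread.

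Coagulation and complement members were set side by side over the 4 groups. In the combined group against filtered air, 9 of 18 coagulation members changed (50%; 7 higher, 2 lower) and 5 of 12 complement members (41.7%; 4 higher, 1 lower). Of all genes 34.9% changed, and 47.1% with the filter at the 60th percentile, so neither share stood far from that of all genes. The median log2 differences of coagulation and complement members were 0.19 and 0.13, a difference of 0.06. With PM2.5 the medians were 0.05 and 0.05, and with metformin 0.12 and 0.07. In the combined group they were 0.18 and 0.07 against PM2.5, and 0.08 and 0.11 against metformin. The medians of both kinds thus differed by -0.03 to 0.11 in the 5 comparisons between groups, and by -0.10 in the interaction, while the difference of their mean deviations had an SD of 0.19 between mice of a group. None of these differences was larger than that spread, which is of single mice and not a standard error of group means. It is also a spread of means over members, while the values above are medians. By mean deviation from filtered air, coagulation minus complement was 0.09 in the combined group, 0.10 with PM2.5 and 0.03 with metformin. No p is given for a score over members.

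**Figure D4:**
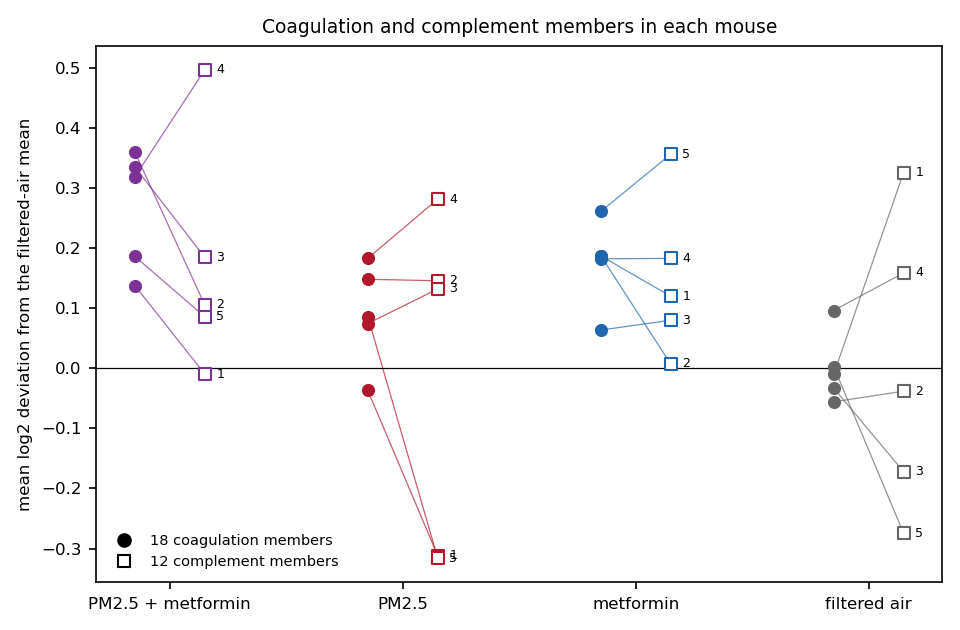
Mean log2 deviation of the 18 coagulation members (circles) and the 12 complement members (squares) from the filtered-air mean of each gene, joined for each mouse, with mouse numbers beside the squares. Coagulation deviations ran from 0.14 to 0.36 in the combined group and from -0.06 to 0.10 in filtered air, while complement deviations overlapped between all groups. Signals are as deposited, without array medians made equal.

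Per mouse, the mean deviation of the coagulation members from filtered air was 0.14 to 0.36 in the combined group, -0.04 to 0.18 with PM2.5, 0.06 to 0.26 with metformin and -0.06 to 0.10 in filtered air. The combined mice thus lay above all filtered-air mice, but by a small step, 0.14 against 0.10. These deviations come from signals as deposited. Making array medians equal shifted this comparison by a median of -0.07 over all genes, and the deviations were not recomputed that way. Complement deviations were more scattered, at -0.01 to 0.50 in the combined group, -0.32 to 0.28 with PM2.5, 0.01 to 0.36 with metformin and -0.27 to 0.33 in filtered air. All groups overlapped there, and C6, C8a, C8b and C9 weigh most in that scatter because their spread is largest.

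Other genes of both systems were read from lists of related genes. Of 19 further coagulation and fibrinolysis genes tested, 4 rose and 4 fell in the combined group against filtered air (42.1%, where 34.9% of all genes changed). F8, the cofactor of F9 and a product of endothelial cells, averaged 11.45 in the combined group, 12.91 with PM2.5, 13.06 with metformin and 13.33 in filtered air. It fell by 1.88 (SE 0.22, adjusted p = 9.06e-06), a larger size than that of any of the 30 members. Of 9 sinusoidal endothelial markers 1 fell in this comparison (11.1%), where 16.2% of all genes fell. The mean level of these markers per mouse was 8.42 to 9.33 in the combined group and 8.97 to 9.18 in filtered air. Their part in the F8 result was not tested. Tfpi, the inhibitor of the tissue factor branch, fell by 0.94 (adjusted p = 0.000511), and Mcfd2, a cargo receptor subunit for F5 and F8, fell by 0.93 (adjusted p = 0.00416). Hrg, a plasma protein that binds plasminogen and heparin, rose by 0.82 (adjusted p = 0.000168), and F11r, a junction protein, by 1.35 (adjusted p = 8.55e-05). Without combined mice 2 and 4, 4 of the 19 passed (F8, F11r, Hrg and Tfpi; 21.1%, all genes 21.5%), and with the covariate 3 (F8, F11r and Hrg; 15.8%, all genes 8.9%). Mcfd2 was lost in both fits (-0.51 and -0.28, adjusted p = 0.0877 and 0.456), and Tfpi was lost with the covariate (-0.51, adjusted p = 0.094). F8 was at -1.70 and -1.46 in these fits (adjusted p = 0.00031 and 0.00286). With PM2.5 alone 0 of the 19 passed and 4 had an unadjusted p under 0.05, and with metformin alone Hrg passed (0.59, adjusted p = 0.0213), but not with the covariate (0.48, adjusted p = 0.0929).

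Vitamin K is the cofactor for the maturation of F2, F7, F9, F10, Proc and Pros1. Of 4 tested genes of its cycle, Vkorc1l1 fell by 0.55 in the combined group against filtered air (adjusted p = 0.0208). Vkorc1, the reductase that warfarin blocks, rose by 0.44 in the combined group against PM2.5 (adjusted p = 0.0348) and by 0.46 against metformin (adjusted p = 0.0211). None of these 3 calls held without combined mice 2 and 4 or with the covariate. In these fits Vkorc1l1 was at -0.35 and -0.24 (adjusted p = 0.211 and 0.511), and Vkorc1 was at 0.30 and 0.37 against PM2.5 (adjusted p = 0.313 and 0.311) and at 0.32 and 0.42 against metformin (adjusted p = 0.193 and 0.0666).

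Of 26 further complement genes, 8 rose and 7 fell in the combined group against filtered air (57.7%, where 34.9% of all genes changed). Among the 5 with the lowest p were C4a (1.68 ± 0.26, adjusted p = 9.35e-05), Cpn2 (1.34 ± 0.22, adjusted p = 0.00013), C4b (1.65 ± 0.31, adjusted p = 0.000404) and C1ra (1.03 ± 0.20, adjusted p = 0.000526), all higher in the combined group. C4a and C4b are near-identical genes, so their probe sets may not tell them apart. Colec10, a soluble lectin, was lower (-0.83 ± 0.17, adjusted p = 0.000895). Without combined mice 2 and 4, 7 of the 26 passed (26.9%, all genes 21.5%), these 5 among them. With the covariate 3 passed, C4a, Cpn2 and C1ra (11.5%, all genes 8.9%), and C4b and Colec10 were lost (0.88 and -0.66, adjusted p = 0.0854 and 0.0615). The C1q chains, made by macrophages, were among the fallers against filtered air. C1qb fell by 1.53 (adjusted p = 0.00982), C1qa by 1.19 (adjusted p = 0.00733) and C1qc by 1.06 (adjusted p = 0.0262). None of the chains passed there without combined mice 2 and 4 or with the covariate. They were also called in the combined group against PM2.5, where C1qb fell by 1.99 (adjusted p = 0.00665), C1qc by 1.62 (adjusted p = 0.00715) and C1qa by 1.37 (adjusted p = 0.0104). These calls did not hold in either check. C1qb was at -1.26 without combined mice 2 and 4 (adjusted p = 0.124) and at -1.08 with the covariate (adjusted p = 0.256). Of the 26 genes 10 passed with all mice (38.5%, all genes 11.7%). In the limma fits of these checks 0 passed, where 1.74% and 0.667% of all genes did, with 9 and 6 at an unadjusted p under 0.05. In the combined group against PM2.5, 5 of 9 Kupffer cell and macrophage markers fell (55.6%) and 0 rose, where 4.73% of all genes fell. Their mean level per mouse was 7.80 to 10.36 in the combined group and 9.60 to 10.55 with PM2.5. Of the 9 sinusoidal endothelial markers 4 fell there (44.4%). Without combined mice 2 and 4, 1 marker of each kind fell, where 1.74% of all genes passed. With the covariate 0 did, where 0.667% of all genes passed, with 3 of each kind at an unadjusted p under 0.05. The part of these cells in the C1q result was not tested. With PM2.5 alone and with metformin alone 0 of the 26 genes passed in limma, where 5.17% and 3.15% of all genes did. Of the 26, 2 and 4 had an unadjusted p under 0.05.

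Regulators known for these genes in the liver were read from a list of 19 transcription factors and interleukin-6 signalling genes. In the combined group against filtered air 9 rose and 1, Nr0b2, fell (52.6%, where 34.9% of all genes changed). Stat3, the main factor of the acute phase response, averaged 10.70 in the combined group, 9.77 with PM2.5, 10.04 with metformin and 9.01 in filtered air, a difference of 1.69 ± 0.21 between the combined group and filtered air (adjusted p = 1.16e-05). Il6ra, the interleukin-6 receptor, was 1.89 ± 0.29 higher (adjusted p = 8.5e-05), Prox1 1.23 ± 0.18 (adjusted p = 5.34e-05) and Hnf4a, a factor for many hepatocyte genes, 0.59 ± 0.14 (adjusted p = 0.00352). Without combined mice 2 and 4, 8 of the 19 passed (42.1%, all genes 21.5%), and with the covariate 5 (26.3%, all genes 8.9%); Stat3 was at 1.39 and 1.28 in these fits (adjusted p = 0.00031 and 0.00366). Il6ra and Prox1 passed in both, while Hnf4a and Nr0b2 were lost with the covariate (0.55 and -1.63, adjusted p = 0.0729 and 0.132). Stat3 and Il6ra also rose with PM2.5 alone (0.76 and 1.08, adjusted p = 0.0358 each) and with metformin alone (1.03 and 1.58, adjusted p = 0.00834 and 0.00479). Whether any of these changes bears on the members was not tested.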

How the data were processed

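Liver RNA from 20 mice in 4 groups of 5 was read on 1 single-channel array each, and groups come from the labels. Per the submitters' processing notes, the deposited log2 signals per probe set were made by the authors with Affymetrix Expression Console; its version and summary method are not given in the sources used here. The array named in the labels' protocol does not carry these probe set identifiers; gene names come from the identifiers' own annotation, with RefSeq symbols. Of 28846 probe sets, 6640 were controls and stayed out of the tests, and 2634 of the others had no gene. Genes with a mean at or below the 40th percentile of the other probe sets (log2 4.05) were left out, which left 11844; that level is below the mean negative-control median of 4.49.

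Group means were fitted in limma 3.58.1 (R 4.3.3, eBayes, two-sided, prior degrees of freedom 5.68, residual 16) and tested on simulated data; p-values were adjusted over all genes. Read depth does not apply to arrays; precision is set by how many there are. The members, lists and tests were chosen with earlier results of these data known. Signals per mouse are given for members called in any comparison, and further lists name called genes, up to 5 per list and comparison in order of p. Alternatives were no filter, a 60th percentile filter, quantile normalization, equal medians, means of probe sets, array weights, a trended robust prior, the negative-control covariate, combined mice 2 and 4 left out, compared groups fitted alone, and each mouse left out.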

Additional observations from a re-analysis of the deposited data

Results flagged for a closer look

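Over 120 sets of 5 mice (30 members in 4 groups), 7 held a mouse far from the other 4 by Dixon's criterion (critical value 0.71), and chance marks about 1 in 20 such sets. None of these members changed in any comparison. Among coagulation members, F7 was 11.33 in filtered-air mouse 2, against 11.79 to 11.94 in the other 4. F10 was 13.76 in metformin mouse 3 (others 14.05 to 14.08), and Serpind1 was 16.33 in the same mouse (others 16.89 to 17.11). F11 was 11.02 in combined mouse 3 (others 10.26 to 10.45). Among complement members, Mbl1 was 13.50 in PM2.5 mouse 5 (others 13.84 to 13.94) and 13.20 in combined mouse 2 (others 13.77 to 13.98). C8a was 12.40 in combined mouse 4 (others 9.999 to 10.41), a mouse with a high negative-control median.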

How the results depend on the processing

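Of 24 called differences of members, 6 passed in every alternative, 18 were lost in at least 1, and 0 changed sign. The 6 were F5, F12, Plg, Pros1, Serpinf2 and Hc in the combined group against filtered air. With the negative-control covariate, the counts of members were 6 for the combined group against filtered air (all genes 8.9%), 1 for PM2.5 against filtered air (5.68%), 0 for the combined group against PM2.5 (0.667%), 1 for it against metformin (8.52%), and 2 in the F test (13.5%). Without combined mice 2 and 4 they were 1 for metformin against filtered air (all genes 4.46%), 0 for the combined group against PM2.5 (1.74%; 3 members unadjusted), 0 for it against metformin (4.21%; 2 unadjusted), and 7 in the F test (20.1%). With the compared groups fitted alone they were 0 for PM2.5 against filtered air (all genes 6.5%; 4 members at an unadjusted p under 0.05 in limma), 0 for the combined group against PM2.5 (4.3%; 7 unadjusted) and 1 for it against metformin (8.62%). For PM2.5 against filtered air, no filter gave 1 (all genes 2.52%) and equal medians 0 (6.47%; 6 unadjusted). For metformin against filtered air, array weights gave 3 (all genes 7.21%) and the trended robust prior 2 (3.26%). For the combined group against PM2.5, no filter gave 3 (all genes 5.71%), equal medians 2 (11.9%) and array weights 3 (10.5%). For the combined group against metformin, the 60th percentile filter gave 6 (all genes 25.5%), the trended robust prior 6 (16.6%) and quantile normalization 5 (16.3%). The cause was not tested. Equal medians turned the split of all genes between the combined group and filtered air to 1765 higher and 2441 lower, against 2214 and 1922.

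Leaving out each mouse gave 0 to 2 members for PM2.5 and 0 to 2 for metformin against filtered air, 0 to 8 for the combined group against PM2.5, 1 to 8 against metformin and 11 to 14 against filtered air, 0 to 0 in the interaction and 9 to 13 in the F test. The coagulation minus complement median stayed within 1 SD (0.19) of its value in every alternative. That SD is of single mice and exceeds each value in the main fit, so this is a weak check. The sign was not fixed. The value ran from -0.07 to 0.12 for the combined group against metformin, and from -0.04 to 0.09 for PM2.5 against filtered air. The interaction's lowest was -0.23, without PM2.5 mouse 4. Each member had 1 probe set, so means of probe sets changed no member. No paired analysis was possible because the labels give no pairing. The sample titles carry numbers that run in blocks by group, and the mouse numbers used here follow sample order. The brightest members sit near the top of the signal range, and 5 mice per group limit the precision.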
